A study of Mus musculus with 6 samples.

Results

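The genes described here are 9 interferon-stimulated genes and factors of interferon signalling, Stat2, Irf1, Irf7, Isg15, Bst2, Ifit1, Ifit2, Ifit3 and Rtp4. They were taken by symbol from an exon count table of 24940 genes of cultured mouse hepatic stellate cells, which store vitamin A in the healthy liver and turn into scar-forming cells after injury. All 9 were in the table, and 8 passed the filter on low counts and were tested, among 11286 genes tested in all. In the OCA+VIP group, cells were given 10 µM obeticholic acid (OCA), a synthetic bile acid agonist of the nuclear receptor FXR, and 3 h later 500 nM vasoactive intestinal peptide (VIP) for a further 3 h. In the DMSO+VIP group, the solvent DMSO (1:1000) took the place of OCA, and VIP was given in the same way. All cells were wild-type primary cells of female C57BL/6JBomTac mice, treated 2 days after isolation. Each group held 3 libraries of polyadenylated RNA. VIP was present in both groups and the labels name no added interferon, so the comparison is of OCA with its solvent in cells given VIP, and the effect of VIP or of interferon is not part of it.

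Interferons act through cell-surface receptors whose Janus kinases phosphorylate STAT proteins. Type I interferons, which cells make after sensing foreign nucleic acid, act through a complex with Stat2 and Irf9 that binds the interferon-stimulated response element (ISRE) in the promoters of antiviral genes. Interferon gamma acts mainly through a different site, GAS. Stellate cells carry receptors of both kinds, and interferon gamma is known to restrain their activation in culture.

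With OCA before VIP, 2 of the 8 tested genes fell, Bst2 and Isg15, and 0 rose. Both encode abundant antiviral effectors, and their levels were about 1.5-fold lower. The call of Bst2 held in all 6 fits that each left out 1 library, while that of Isg15 held in only 1 of the 6. The share of lower genes over the whole table was 6.04%, and that of higher genes 5.72%. Stat2, Irf1 and Ifit2, which were measured at moderate depth, did not pass the test and had fitted values above 0. Irf7, Ifit3 and Rtp4 rested on few counts and did not pass it either, and Ifit1 had too few to be tested. Of the 8 fitted values, 4 lay above 0 and 4 below. None of the 4 above 0 passed the test, so the signs do not show that these genes moved the other way. The median log2 fold change of the 8 genes was -0.17, against 0.00 over all tested genes.

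Levels are given in CPM, counts scaled to the total of their library. The libraries held 4534360 to 9947970 counts with OCA+VIP and 2839110 to 4574160 counts with DMSO+VIP. Low counts were uneven: of those up to 30, 37.5% to 56.7% in OCA+VIP libraries and 56.3% to 58.2% in DMSO+VIP libraries were no more than 0.5 away from a multiple of 6, where an even spread gives 25.0%. OCA+VIP library 2 had the lowest share. Whether single counts are independent is not known, and a step of 6 was assumed for the limits given here. A sum of 18 counts in a group (3 such steps), 0.887 CPM for OCA+VIP and 1.61 CPM for DMSO+VIP, was used as the floor, the upper limit for a count of 0. All 15 stellate cell markers on the list used were detected, with a summed level of 1000 to 1122 CPM with OCA+VIP and 857 to 1143 CPM with DMSO+VIP, while 4 of them rose, among them Colec11 (31.5 CPM with OCA+VIP, 6.97 CPM with DMSO+VIP), and 3 fell, among them Hgf (11.1 CPM with OCA+VIP, 47.7 CPM with DMSO+VIP). The summed level of 15 hepatocyte markers was 246 to 411 CPM with OCA+VIP and 72.7 to 81.5 CPM with DMSO+VIP, with Cps1 and Tat at 0, and 8 of the 10 tested rose. Of 14 macrophage markers, 6 were at 0, among them Ptprc and the C1q genes, and their sum was 32.8 to 45.6 CPM with OCA+VIP and 15.3 to 50.5 CPM with DMSO+VIP. Of 6 markers of plasmacytoid dendritic cells, which express Bst2 strongly, Siglech and Klk1 were at 0 in every library, while Bst2 itself, Tcf4, Irf8 and Ccr9 were detected. Their sum, mostly Bst2, was 104 to 115 CPM with OCA+VIP and 133 to 147 CPM with DMSO+VIP. Tcf4 averaged 27.6 CPM with OCA+VIP and 23.0 CPM with DMSO+VIP, and Irf8 11.3 CPM with OCA+VIP and 10.1 CPM with DMSO+VIP. The sum of 10 liver endothelial markers was 14.0 to 22.3 CPM with OCA+VIP and 5.76 to 11.6 CPM with DMSO+VIP, and that of 6 cholangiocyte markers 17.3 to 21.0 CPM with OCA+VIP and 6.16 to 14.9 CPM with DMSO+VIP. Of 12 lymphocyte markers, 10 were at 0. The lymphocyte sum was 5.88 to 10.4 CPM with OCA+VIP and 0 to 1.31 CPM with DMSO+VIP. The part of these cell types in the results was not tested. In bulk RNA such as this, fewer cells of a type and less RNA per cell cannot be told apart. Nothing in the labels ties the 3 libraries of a group to different mice or dishes, so each p-value reflects only how far these libraries differ, which may be technical.

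**Figure D1:**
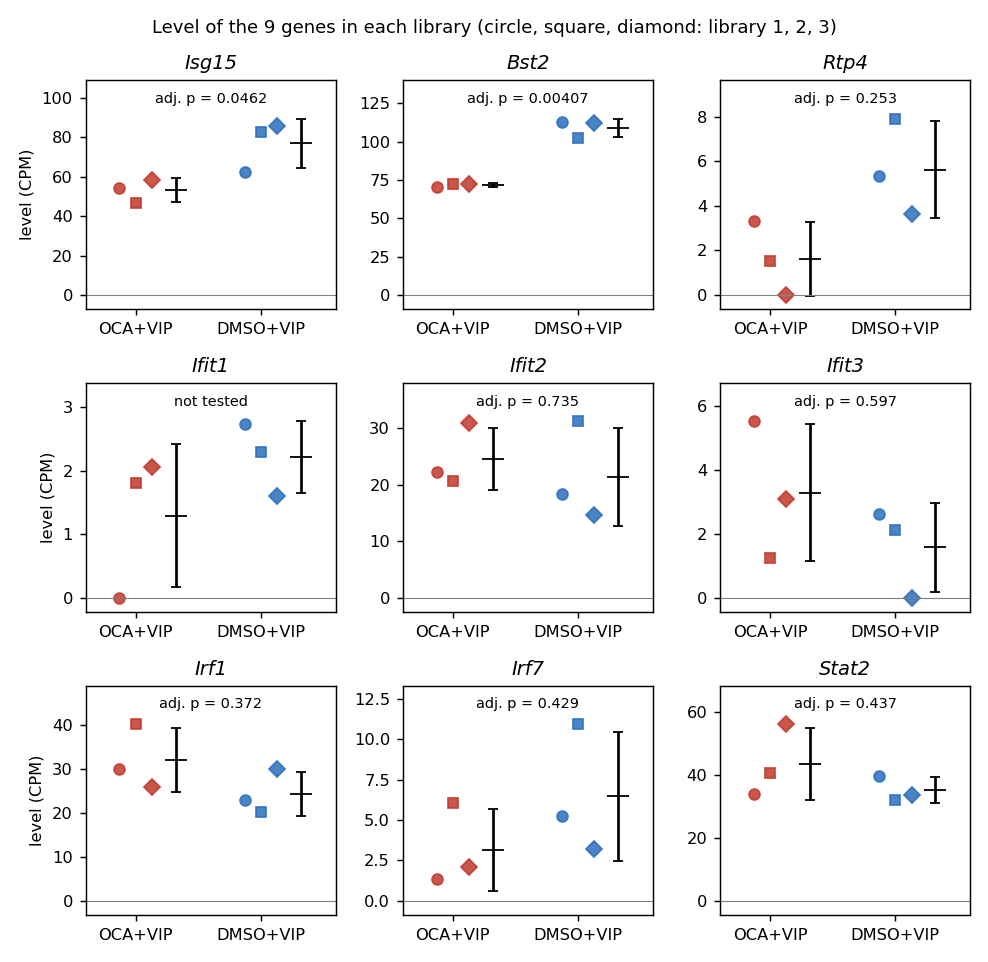
Level in CPM (vertical axes from 0) of each of the 9 genes in the 3 OCA+VIP libraries (red) and the 3 DMSO+VIP libraries (blue), with circle, square and diamond for libraries 1, 2 and 3. The black dash and bar are mean and SD (n = 3), and the p is edgeR's, adjusted over all tested genes; the red points of Isg15, Bst2 and Rtp4 lie below all blue points, and in the other 6 panels the groups overlap.

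The promoter sequences bear on whether the genes share a response element. RefSeq promoter windows (GRCm38.p6, from 250 bases before to 50 bases after the start) were found for 8 of the 9 genes, all but Rtp4. The ISRE was searched on both strands as GAAA, any 2 bases and a second GAAA (TTTC, any 2 bases and TTTC where it lies on the opposite strand). These letters occur in 5 of the 8 (62.5%), Isg15, Bst2, Ifit1, Ifit3 and Stat2, against 3.44% of 32851 promoter windows of the whole RefSeq table. The GAS letters, TTC, any 3 bases and GAA, read the same on both strands and occur in Bst2, Ifit2 and Irf1 (37.5%), against 8.30% of all windows. Each member was counted by 1 window, that nearest its start in the count table, and the background by every window. The genes were chosen for their known link to interferon, so these shares say nothing about OCA. The 140 bases before the start are printed for the 4 genes with a matched ISRE nearest the start, which include both genes that fell, and for Irf1, which has a GAS match instead. Each is written 5′ to 3′ along the gene, with the matched letters in capitals.
Isg15, chr4:156200819-156200958, minus strand: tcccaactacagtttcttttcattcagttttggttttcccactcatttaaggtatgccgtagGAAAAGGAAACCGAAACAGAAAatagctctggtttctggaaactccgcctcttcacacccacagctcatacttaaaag
Bst2, chr8:71537473-71537612, minus strand: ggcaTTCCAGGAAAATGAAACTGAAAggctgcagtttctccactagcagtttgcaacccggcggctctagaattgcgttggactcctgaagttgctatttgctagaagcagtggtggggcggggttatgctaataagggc
Ifit1, chr19:34640749-34640888, plus strand: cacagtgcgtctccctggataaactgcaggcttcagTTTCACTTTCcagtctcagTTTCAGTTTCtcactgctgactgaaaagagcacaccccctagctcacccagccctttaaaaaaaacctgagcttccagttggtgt
Ifit3, chr19:34583389-34583528, plus strand: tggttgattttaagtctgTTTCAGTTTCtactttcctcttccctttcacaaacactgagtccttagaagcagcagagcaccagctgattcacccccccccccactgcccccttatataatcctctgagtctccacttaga
Irf1, chr11:53769874-53770013, plus strand: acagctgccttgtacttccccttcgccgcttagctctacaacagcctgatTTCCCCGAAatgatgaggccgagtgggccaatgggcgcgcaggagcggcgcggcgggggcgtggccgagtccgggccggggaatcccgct
Isg15 holds 3 overlapping ISRE matches, the first beginning 78 bases before the start, and Bst2 holds 2 that overlap, the first beginning 130 bases before it. The RefSeq entry of Bst2 starts 35 bases upstream of the transcript in the count table. In Bst2 the GAS match overlaps the first ISRE match and forms 1 run of capitals with it. Ifit1 has 2 separate ISRE matches on the opposite strand, and Ifit3 has 1 in the printed stretch and 1 further upstream. The match of Stat2 begins 222 bases before the start and lies outside the length printed. Bst2 and Isg15, which fell, and Ifit1 and Ifit3, which were too low to show a direction, thus share these letters. So does Stat2, which did not pass the test and had a fitted log2 fold change above 0 (0.29). A match describes the sequence and does not show that a factor binds there.

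Stat2 encodes the transducer that type I interferon receptors need to build the ISRE-binding complex. Its level was 33.96, 40.5 and 56.1 CPM in OCA+VIP libraries 1 to 3, against 39.8, 32.1 and 33.6 CPM in DMSO+VIP libraries 1 to 3. The groups overlapped, and the highest value was that of OCA+VIP library 3. The log2 fold change was 0.29 (SE 0.22), with a 95% interval of -0.16 to 0.74 and an edgeR adjusted p of 0.437. Without OCA+VIP library 3 the log2 fold change was 0.06. A doubling or a halving of Stat2 lies outside this interval.

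Irf1 encodes a transcription factor that interferon gamma induces directly through a GAS site and that many inflammatory signals also induce. It had 30.1, 40.2 and 25.9 CPM in OCA+VIP libraries 1 to 3, against 23.1, 20.3 and 30.0 CPM in DMSO+VIP libraries 1 to 3. The groups overlapped through DMSO+VIP library 3, which lay among the OCA+VIP values. The log2 fold change was 0.36 (SE 0.25, 95% interval -0.15 to 0.87, edgeR adjusted p = 0.372). Its promoter has the GAS match printed above and no ISRE match. In the fits without 1 library it ranged from 0.21 to 0.53, and in none of these 6 fits did it pass the test. Exons of Gm17334 on the opposite strand share 3.40% of the exon bases of Irf1.

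Irf7 encodes the factor that amplifies type I interferon production and is itself interferon-stimulated. It was listed with 6, 60 and 12 counts in OCA+VIP libraries 1 to 3, against 24, 31 and 12 counts in DMSO+VIP libraries 1 to 3. In CPM these were 1.32, 6.03 and 2.07 with OCA+VIP, against 5.25, 10.9 and 3.22 with DMSO+VIP. The groups overlapped: OCA+VIP library 2, the deepest, lay above DMSO+VIP libraries 1 and 3. The fitted log2 fold change was -1.03 with an SE of 0.77, and its 95% interval of -2.62 to 0.56 spans a fall and a rise (edgeR adjusted p = 0.429). It was -0.43 without DMSO+VIP library 2 and -1.88 without OCA+VIP library 2. The gene rests on sums of 78 counts with OCA+VIP and 67 with DMSO+VIP, so a difference of 2-fold was not detectable at this depth.

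Bst2, also called tetherin, encodes a membrane protein that holds budding enveloped viruses at the cell surface. Its level was 70.4, 72.2 and 72.4 CPM in OCA+VIP libraries 1 to 3, against 113, 102 and 112 CPM in DMSO+VIP libraries 1 to 3. The groups did not overlap, and the spread within the OCA+VIP group was small (71.7 ± 1.15 CPM, against 109 ± 5.97 CPM with DMSO+VIP; SD, n = 3 each). Of the 8 tested genes, 3 lay lower with OCA+VIP without overlap (Bst2, Isg15 and Rtp4) and 0 higher, against 13.9% and 16.8% of all tested genes. Bst2 was 1.54-fold lower (log2 fold change -0.62, SE 0.14, 95% interval -0.91 to -0.34, edgeR adjusted p = 0.00407). Its call held in each of the 6 fits without 1 library, with log2 fold changes of -0.66 to -0.59 and adjusted p of 0.00875 to 0.0238. The exons of Bst2 (chromosome 8, 71534262 to 71537437, mm10) overlap no other gene in the GENCODE annotation, and none of its 50-base transcript windows occurs in another gene.

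Isg15 encodes a ubiquitin-like protein that is attached to other proteins during an interferon response and is also secreted. It had 54.3, 46.6 and 58.4 CPM in OCA+VIP libraries 1 to 3, against 62.5, 82.6 and 85.6 CPM in DMSO+VIP libraries 1 to 3. The groups did not overlap, but OCA+VIP library 3 and DMSO+VIP library 1 lay close together. Isg15 averaged 53.1 ± 5.99 CPM with OCA+VIP and 76.9 ± 12.5 CPM with DMSO+VIP (SD, n = 3 each) and was 1.46-fold lower. Its log2 fold change was -0.55 (SE 0.18, 95% interval -0.91 to -0.18, edgeR adjusted p = 0.0462), just past the threshold of 0.05. In 5 of the 6 fits without 1 library it was no longer called. The adjusted p was 0.0896, 0.168 and 0.0788 without OCA+VIP library 1, 2 or 3, and 0.135 and 0.168 without DMSO+VIP library 2 or 3. The log2 fold change in all 6 such fits stayed below 0, from -0.69 to -0.42. The gene lies on chromosome 4 (156199424 to 156200818, mm10), and 3.96% of its 50-base transcript windows also occur in the model AC151275.1.

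**Figure D2:**
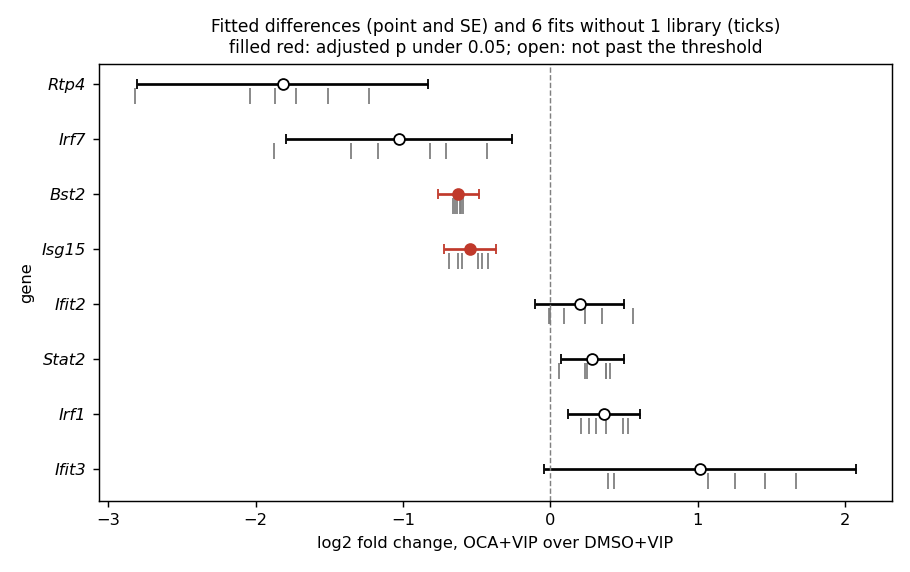
Log2 fold change of OCA+VIP over DMSO+VIP (horizontal axis) for the 8 tested genes, as point and SE, with grey ticks for the 6 fits that each leave out 1 library. Bst2 and Isg15 (filled red) passed the test; the ticks of Bst2 lie within -0.66 to -0.59, while those of Rtp4 spread from -2.82 to -1.23 and those of Ifit3 from 0.39 to 1.66.

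The Ifit genes encode tetratricopeptide repeat proteins that bind viral RNA or each other, and the 3 members lie within 99316 bases of the plus strand of chromosome 19 (mm10). Ifit2 was the only one with a moderate level, 22.3, 20.7 and 30.8 CPM in OCA+VIP libraries 1 to 3, against 18.4, 31.2 and 14.7 CPM in DMSO+VIP libraries 1 to 3. DMSO+VIP library 2 held the highest value and the groups overlapped throughout. The log2 fold change of Ifit2 was 0.20 (SE 0.30, 95% interval -0.43 to 0.83, edgeR adjusted p = 0.735). Its sign depended on the libraries used: without DMSO+VIP library 2 it was 0.56, and without DMSO+VIP library 3 it was -0.011.

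Ifit3, whose product stabilises the Ifit complex in human cells, had 25, 12.5 and 18 counts in OCA+VIP libraries 1 to 3, against 12, 6 and 0 counts in DMSO+VIP libraries 1 to 3. That was 5.51, 1.26 and 3.10 CPM with OCA+VIP, against 2.62, 2.11 and 0 CPM with DMSO+VIP, with overlap between the groups. The sum over the DMSO+VIP group was 18 counts, equal to the floor, and the fitted log2 fold change of 1.02 had an SE of 1.06 (edgeR adjusted p = 0.597). Of the 50-base windows of the Ifit3 transcript, 51.2% also occur in its neighbour Ifit3b, so counts of these near-identical genes could be split between them and both are uncertain. Ifit3b was listed with 9 counts over the OCA+VIP group and 0 over the DMSO+VIP group, both under the floor.

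Ifit1, which in human and mouse cells binds RNA whose cap lacks the host's methyl mark, had 0, 18 and 12 counts in OCA+VIP libraries 1 to 3, against 12.5, 6.5 and 6 counts in DMSO+VIP libraries 1 to 3. These sums, 30 and 25 counts, were too low for the filter. With no filter its log2 fold change was -0.71 with an SE of 1.47 (edgeR adjusted p = 0.833). The related genes Ifit1bl1 and Ifit1bl2 share 0.614% and 7.06% of its 50-base windows. Neither a rise nor a fall of Ifit1 was detectable at this depth.

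Rtp4 encodes an interferon-induced protein first known for carrying G protein-coupled receptors to the cell surface. It had 15, 15 and 0 counts in OCA+VIP libraries 1 to 3, against 24.5, 22.5 and 13.5 counts in DMSO+VIP libraries 1 to 3. Scaled to depth, the levels were 3.31, 1.51 and 0 CPM with OCA+VIP, against 5.36, 7.93 and 3.62 CPM with DMSO+VIP, and the groups did not overlap. The fitted log2 fold change was -1.82, the lowest of the 8, but its SE was 0.99 and it did not pass the test (95% interval -3.86 to 0.23, edgeR adjusted p = 0.253). It stood at -1.23 without OCA+VIP library 3, the library at 0. A transcript model on the same strand, Gm45338, shares 13.9% of the exon bases of Rtp4.

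Levels can be compared between genes only per length. Per kilobase of exon in OCA+VIP cells, Bst2 had the highest level (94.4 ± 1.51 CPM per kb), followed by Isg15 (70.6 ± 7.97), Irf1 (15.1 ± 3.45), Stat2 (9.78 ± 2.55), Ifit2 (6.24 ± 1.39), Irf7 (1.70 ± 1.37), Ifit3 (1.65 ± 1.07), Rtp4 (1.02 ± 1.06) and Ifit1 (0.491 ± 0.428; SD, n = 3). Of neighbours in that order, Bst2 and Isg15, Isg15 and Irf1, and Ifit2 and Irf7 did not overlap over the 3 libraries, and the other pairs did. In DMSO+VIP cells the first 5 places were the same, with Bst2 at 144 ± 7.86, Isg15 at 102 ± 16.7, Irf1 at 11.5 ± 2.36, Stat2 at 7.90 ± 0.919 and Ifit2 at 5.43 ± 2.19 CPM per kb. Rtp4 (3.59 ± 1.38), Irf7 (3.50 ± 2.16), Ifit1 (0.839 ± 0.215) and Ifit3 (0.792 ± 0.698 CPM per kb) came after them. There, Bst2 and Isg15, Isg15 and Irf1, Irf1 and Stat2, and Irf7 and Ifit1 did not overlap, and the other neighbours did. The mean levels of Ifit1, Ifit3, Irf7 and Rtp4 were more than 10 times lower than those of Bst2 and Isg15 in both groups.

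Upstream in the pathway, all 11 interferon genes on the list used had a count of 0 in all 6 libraries. They included Ifnb1, Ifng and, of the Ifna family, only Ifna1, Ifna2, Ifna4, Ifna5 and Ifna13. A count of 0 allows levels of up to 0.887 CPM over the OCA+VIP group and 1.61 CPM over the DMSO+VIP group. Of 8 tested genes for receptors and their kinases, 2 fell and 0 rose, while 6.04% of all tested genes fell and 5.72% rose. Ifnar2, a chain of the type I receptor, had 94.5 ± 8.58 CPM with OCA+VIP and 128 ± 18.6 CPM with DMSO+VIP (log2 fold change -0.46, edgeR adjusted p = 0.0315). Il10rb, shared by the interferon lambda and IL-10 receptors, had a log2 fold change of -0.65 (edgeR adjusted p = 0.0106). The model Gm21970, on the same strand, shares 9.46% and 14.9% of the exon bases of Ifnar2 and Il10rb. Ifnar1, Ifngr1 and Ifngr2 had log2 fold changes of -0.10, -0.22 and -0.27 and did not pass the test. Irf9, a partner of Stat2 in its complex, had 31.5 ± 1.67 CPM with OCA+VIP and 43.8 ± 8.32 CPM with DMSO+VIP and did not pass it either (-0.49, edgeR adjusted p = 0.139).

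Of the 6 tested STAT genes, only Stat3, the main transducer of IL-6 family cytokines, passed the test. It had 247, 244 and 217 CPM in OCA+VIP libraries 1 to 3, against 165, 136 and 186 CPM in DMSO+VIP libraries 1 to 3, without overlap (log2 fold change 0.52, SE 0.13, edgeR adjusted p = 0.0101). Without OCA+VIP library 1 or DMSO+VIP library 2 its adjusted p was 0.0642 and 0.0727. Stat5a and Stat5b had log2 fold changes of -0.48 and 0.30 and did not pass. Among 10 tested interferon regulatory factors and their binding proteins, only the corepressor genes Irf2bp2 and Irf2bpl fell (-0.95 and -0.54), and none rose. Of all tested genes, 6.04% fell and 5.72% rose.

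In the list of type I interferon-stimulated effectors, which holds 6 of the 9 genes, 40 of 55 were tested. Of these 7 fell and 0 rose, while 33 missed the threshold. Fitted values lay above 0 for 11 of the 40 and below 0 for 29. The median log2 fold change was -0.48 against 0.00 over all tested genes, of which 6.04% fell and 5.72% rose. Besides Bst2 and Isg15, those that fell were Ifi27 (-1.03), Lgals3bp (-1.01), Ifitm3 (-0.59), Helz2 (-0.71) and Phf11d (-1.58). The first 4 of these are named because their p was the smallest in the list outside the members. Phf11d was picked with its values in view. Ifi27, a small interferon-inducible membrane protein gene, had 74.9, 59.2 and 73.1 CPM in OCA+VIP libraries 1 to 3, against 125, 149 and 146 CPM in DMSO+VIP libraries 1 to 3 (edgeR adjusted p = 7.36e-05). Ifitm3, encoding a membrane protein that blocks virus entry, had 105 ± 8.87 CPM with OCA+VIP and 156 ± 12.9 CPM with DMSO+VIP (edgeR adjusted p = 0.00564). It shares up to 4.61% of its 50-base windows with another gene, Gm7676, and 2.38% with Ifitm1. Among the 11 with fitted values above 0 were Ifitm1 (1.43, edgeR adjusted p = 0.122) and Oasl1 (0.81, edgeR adjusted p = 0.109), which did not pass. These 2 were also picked with their values in view. The call of Helz2 was lost without OCA+VIP library 1 or 3 or DMSO+VIP library 1 or 3 (adjusted p 0.0675 to 0.119). That of Phf11d, which shares up to 10.1% of its 50-base windows with Phf11c, was lost without any library but OCA+VIP library 2 (0.0848 to 0.138). The number of lower genes in the list was 4 without OCA+VIP library 1, OCA+VIP library 3 or DMSO+VIP library 3. The enzymes of ISG15 conjugation did not move together: Trim25 fell (-0.87, edgeR adjusted p = 0.000263), while Ube2l6, Herc6 and the deconjugating Usp18 had -0.57, 0.56 and 0.61 and did not pass.

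**Figure D3:**
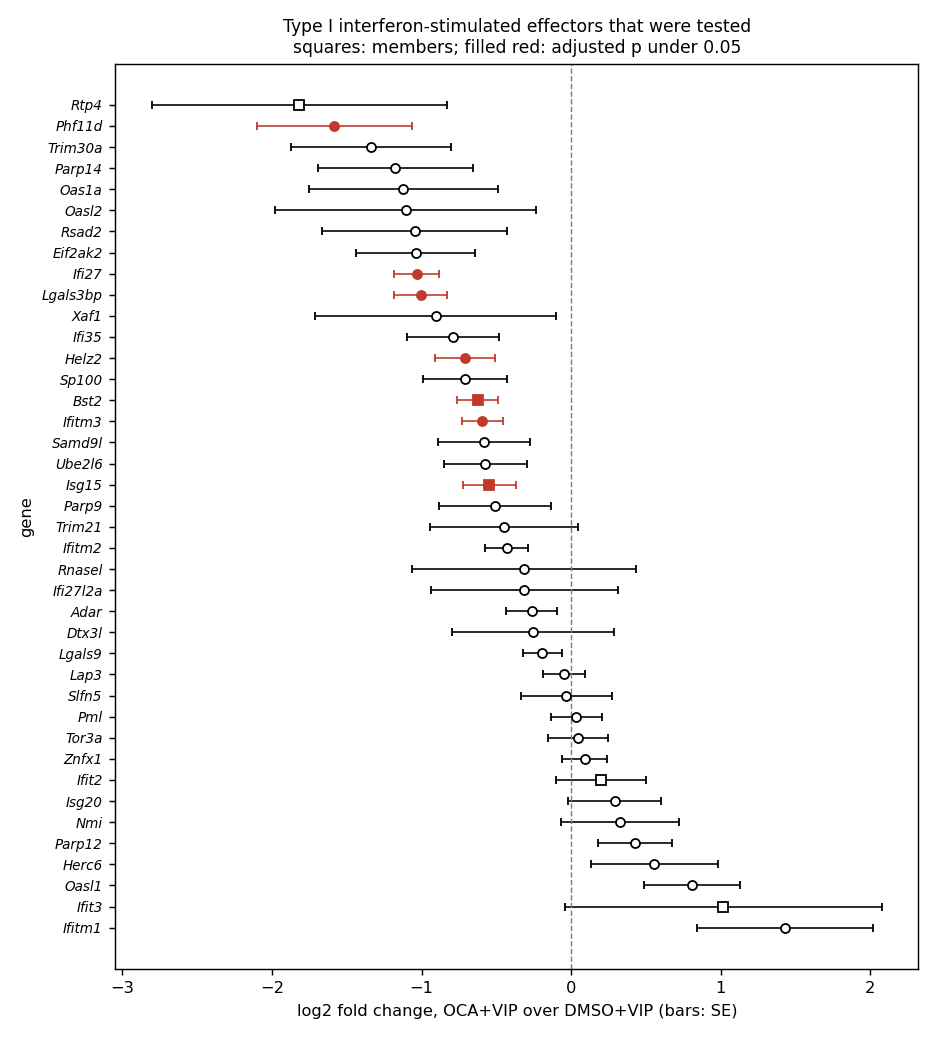
Log2 fold change of OCA+VIP over DMSO+VIP (horizontal axis) with SE for the 40 tested type I interferon-stimulated effectors, 1 per line from the lowest value to the highest; squares are genes of the 9. The 7 filled red points (adjusted p under 0.05) all lie below 0, between -1.58 and -0.55.

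Targets of interferon gamma moved both ways, with 4 lower, 3 higher and 11 not past the threshold, of 18 tested. For this and the following lists, the shares over all tested genes were 6.04% lower and 5.72% higher. The antigen presentation genes Tap1 and B2m fell (-1.53 and -0.68), as did the GTPase gene Irgm1 and the transactivator gene Nlrc5 (-1.10 and -1.12). The checkpoint ligand gene Cd274, the antigen presentation gene Tapbp and the chemokine gene Cxcl10 rose (1.42, 0.95 and 1.03). Antigen presentation genes thus went both ways. Tap1, B2m, Cd274 and Tapbp are named because their p was the smallest in the list, so they too were chosen by their values. Irgm1, Nlrc5 and Cxcl10 were chosen outside that rule after their values were seen. Of 13 tested negative regulators of the pathway, 0 rose and 0 fell, with a median of 0.23, and Socs1, the feedback inhibitor of the Janus kinases, had 7.28 ± 1.66 CPM with OCA+VIP and 3.13 ± 2.79 CPM with DMSO+VIP (1.27, edgeR adjusted p = 0.285). The log2 fold change of Socs1 ranged from 0.88 to 2.31 without 1 library. Ptpn1, a phosphatase of the Janus kinases, had 0.41 (edgeR adjusted p = 0.0603) and passed the test in 1 of the 6 fits without 1 library, that without OCA+VIP library 2 (0.0284). Of 12 tested nucleic acid sensors and adaptors, Trim25 fell and Myd88 rose (0.47). A list of STAT3 targets and IL-6 family cytokines had 10 tested genes. Of these, the cytokine genes Il6, Il11 and Lif fell (-3.09, -2.50 and -0.73), Pim1 rose (0.66) and 6 did not pass. The activity of STAT3 was not measured. Models on the opposite strand share 20.5% of the exon bases of Irf2bp2, 14.1% of Cd274, 24.9% of Tapbp, 14.5% of Pim1 and 11.3% of Myd88, and the use of strand in counting is not given in the sources used here. Single libraries decided several of these calls, which were lost for B2m without DMSO+VIP library 2 (adjusted p = 0.0565), for Cd274 and Irgm1 without OCA+VIP library 3 (0.0669 and 0.0569) and for Tapbp without OCA+VIP library 1 (0.0559). They were also lost in 3 of 6 such fits for Cxcl10 (up to 0.0823) and Irf2bpl (up to 0.119), in 4 for Ifnar2 (up to 0.172) and in 5 for Nlrc5 and Myd88 (up to 0.167 and 0.22).

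**Figure D4:**
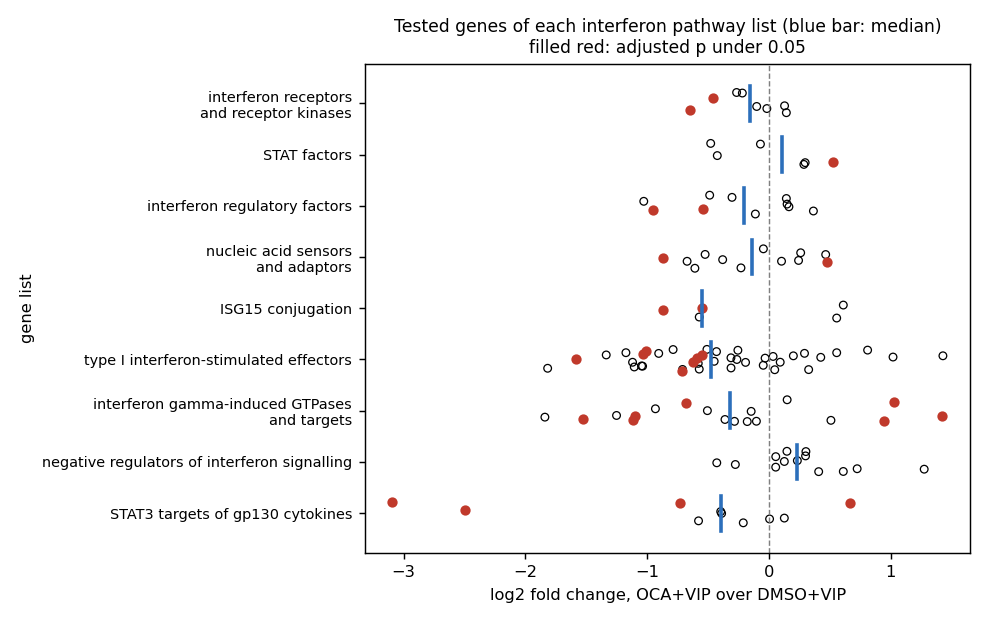
Log2 fold change of OCA+VIP over DMSO+VIP (horizontal axis) of every tested gene in 9 lists of the interferon and STAT pathways, with genes past the threshold in filled red and the list median as a blue bar; the lists share some genes. The median lies lowest for ISG15 conjugation and the type I effectors (-0.55 and -0.48). It lies above 0 for the STAT factors and the negative regulators (0.11 and 0.23). For ISG15 conjugation, with 5 tested genes, the median is the value of Isg15 itself.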

How the data were processed

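Polyadenylated RNA of 6 libraries was analysed. The authors deposited 1 table of expected counts over exons, in HOMER's layout per the file headers, with 1 RefSeq transcript per gene; the values come in steps of 0.5 and are not adjusted for library size. The submitters' processing notes name mm10, STAR, HOMER and DESeq2 with no role or version. Strand use and duplicate removal are not given in the sources used here. Columns were assigned to groups by name, and their numbers were not matched to the replicate letters in the labels, so libraries are numbered as the columns are.

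Counts were rounded to whole numbers and fitted over the whole table with edgeR 4.0.16 in R 4.3.3: TMM, filterByExpr (minimum count 10, minimum total 15), quasi-likelihood F test, two-sided, Benjamini-Hochberg adjusted over 11286 genes, threshold 0.05. The SE is the log2 fold change divided by the root of F, and the 95% interval uses the degrees of freedom of the fit. CPM use the column total. Deposited gene lengths gave CPM per kb, and GENCODE M21 gave overlaps and shared windows.

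The members, the gene lists and the tests were chosen with earlier results of these data known. Besides the members, each list gives its 4 genes of smallest p (mean level 1 CPM or more), and partners of the members are named, except 1 that is not reported here; the text says where another gene was picked with its values in view. The script was tested on simulated data with known changes. The alternatives tried were scaling by RLE, upper quartile or library size alone, other filters, DESeq2 1.42.0, limma-voom (limma 3.58.1), a replicate block, other thresholds, counts divided by 6 and leaving out each library.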

Additional observations from a re-analysis of the deposited data

How the results depend on the processing

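Bst2 kept its sign and its call under every alternative run. Isg15 kept its sign in all of them, but not its call: besides the fits without 1 library, the adjusted p was 0.058 with library-size scaling, 0.0543 with a filter of 1 CPM in 3 libraries and 0.0639 with a replicate block in edgeR, so that the number of lower members was 1 there, as at a threshold of 0.01, against 2 otherwise. Without 1 library it was 1 to 2. No other tested member passed the test under any alternative. Without 1 library, the log2 fold change of Ifit2 ranged from -0.011 (without DMSO+VIP library 3) to 0.56, and that of the list gene Ifnar1 from -0.25 to 0.029 (without OCA+VIP library 3). With counts divided by 6, only 5 of the 9 genes were tested.

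Over all genes, 1328 were called (646 higher, 682 lower). DESeq2 called 2245 (1130 higher, 1115 lower), and a threshold of 0.01 left 648 (303 and 345). Without 1 library the count was 737 to 1478 (310 to 745 higher, 395 to 733 lower). DESeq2 called 11 of the type I effectors lower and 1 higher. No pairing by column number was seen: the deviations of same-numbered libraries from their group means correlated at -0.05 to 0.03. With 3 libraries per group, this cannot show that the libraries were unpaired. The replicate block gave 1118 calls in edgeR and 1706 in DESeq2. The median log2 fold change of all tested genes was -0.04 with upper-quartile scaling and 0.02 with library-size scaling. Depth limits Ifit1, Ifit3, Irf7 and Rtp4, whose summed counts per group were 18 to 78.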

Other observations

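The ISRE letters were also searched in the 8875 of 11286 tested genes that had a RefSeq promoter window (2411 had none), a choice made after the values of the members were seen. Of 253 tested genes outside the 9 members with at least 1 match in the window nearest their start, 5.93% fell and 5.14% rose with OCA+VIP relative to DMSO+VIP. Of 8615 with no match, 5.79% fell and 6.09% rose. Of the 19 with at least 2 matches, 2 fell and 0 rose. These shares were not tested against each other. By the measure of likeness used, Pearson r of log2 CPM over the 6 libraries with the mean scaled level of the 8 tested members, the 3 most similar tested genes were Fbln5, Mrpl36 and Cetn3 (r of 0.992, 0.987 and 0.982). These values were picked as the highest among all tested genes and carry no test. The mean scaled level was 0.433 in DMSO+VIP library 2 and between -0.225 and 0.119 in the other libraries, so likeness rests largely on 1 library. Correlations between members ranged from -0.907 (Rtp4 and Stat2) to 0.811 (Bst2 and Isg15), so the mean does not stand for each member.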
